A study of Mus musculus with 4 samples.

Results

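The nuclear genes of the mitochondrial respiratory chain were followed in cultured rib chondrocytes, the cells that make cartilage, from Senp6-Mut and WT mice. Members were chosen by gene symbol (Nduf, Uqcr, Atp5 and the Cox4i to Cox8 series, with Sdha, Sdhb, Sdhc, Sdhd, Cyc1 and Cycs) and selected on read count, with at least 10 reads in at least 2 samples. Of 93 genes listed with such a symbol, 89 were kept, out of 14123 genes that passed the same read count filter. The Senp6-Mut cells carried Dermo1-Cre and Senp6f/f, and the WT cells carried Senp6f/f, so that both groups held the floxed allele. Senp6 encodes a protease that takes SUMO chains off proteins, and Dermo1-Cre deletes it in mesenchymal progenitors of the skeleton, from the Twist2 (Dermo1) locus. All cells were primary cultures at passage 1, on a C57BL/6 background, from E18.5 embryos. Each genotype had 2 samples, and nothing in the labels says whether these came from separate embryos, so that the p values measure the spread between samples, which may be technical.

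The respiratory chain sits in the inner mitochondrial membrane. Complexes I and II pass electrons from NADH and succinate to coenzyme Q, complex III passes them to cytochrome c, and complex IV passes them to oxygen, while complex V uses the proton gradient to make ATP. Most subunits are encoded in the nucleus and a few in the mitochondrial genome. Cartilage has no blood vessels, and chondrocytes are known to draw much of their ATP from glycolysis.

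The 4 samples held about 21016000 to 30995000 reads on genes. Senp6 had an RPKM of 10.8 and 18.0 in the WT samples and of 12.02 and 8.07 in the Senp6-Mut samples, so that the genotypes overlapped. These reads cover the whole gene, exons outside the deletion included, and do not check the labels. Senp6-Mut replicate 2 was the one sample with Xist reads in number (11354, against 2 to 5 in the others), so that sex differed within the mutant pair. Of 15 chondrocyte markers, 12 (80.0%) were lower in both Senp6-Mut samples than in both WT samples, against 22.8% of all genes, and their summed RPKM was 1044 and 1015 in WT and 520.3 and 656.0 in Senp6-Mut. Col2a1, the main collagen of cartilage, was at 609.0 and 659.2 RPKM in the WT samples and at 333.5 and 445.3 in the Senp6-Mut samples. Of 18 striated muscle markers, 15 (83.3%) were higher in both Senp6-Mut samples, against 25.4% of all genes, with a summed RPKM of 168.8 and 50.9 in WT and 282.9 and 324.1 in Senp6-Mut. The 3 tested fat markers (Adipoq, Fabp4 and Plin1) had a summed RPKM of 133.8 in WT replicate 1 and of 20.1 to 35.3 in the other samples. All 3 tested osteoblast markers (Sp7, Ibsp and Phex) were lower in both Senp6-Mut samples, with a summed RPKM over the osteoblast list of 82.3 and 24.3 in WT and 7.96 and 19.0 in Senp6-Mut. The 4 tested macrophage and leukocyte markers were lower in both as well, with a summed RPKM over that list of 16.7 and 14.6 in WT and 6.63 and 10.2 in Senp6-Mut. The summed RPKM of endothelial markers was between 0.474 and 0.828 and that of erythroid markers at most 0.364. The part of these cell type markers in the values of the chain was not tested, and in bulk RNA fewer cells of a type cannot be told apart from less RNA per cell.

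The transcripts of the chain were abundant in these cells. The members had a median RPKM, which scales reads by gene length and by the reads of the sample, of 69.7, against 7.66 over all genes tested, and the median member stood at percentile 92.9. Atp5b, the catalytic beta subunit of complex V, was the highest at 500.7 and 557.4 RPKM in WT and 475.8 and 521.9 in Senp6-Mut. Cox6a1, a subunit of complex IV, followed at 448.1 and 392.3 in WT and 384.8 and 384.3 in Senp6-Mut. In complex III the highest was Uqcrq (186.4, 143.4, 145.2 and 161.1 in WT replicates 1 and 2 and Senp6-Mut replicates 1 and 2, an order kept below), and in complex I it was Ndufa3 (205.7, 211.0, 208.2 and 234.5). For each gene the mean RPKM of the 4 samples was taken. Over genes, the median of these means was 60.4, 66.4, 110.6, 126.1 and 138.5 for complexes I to V in that order. The 10 members that are not core subunits had a far lower median, 7.20, although Cox7a2l among them had a mean RPKM of 119.4. All 89 members together had a summed RPKM of 8918, 8465, 7557 and 8536, and took 0.804%, 0.785%, 0.697% and 0.768% of the reads.

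**Figure D1:**
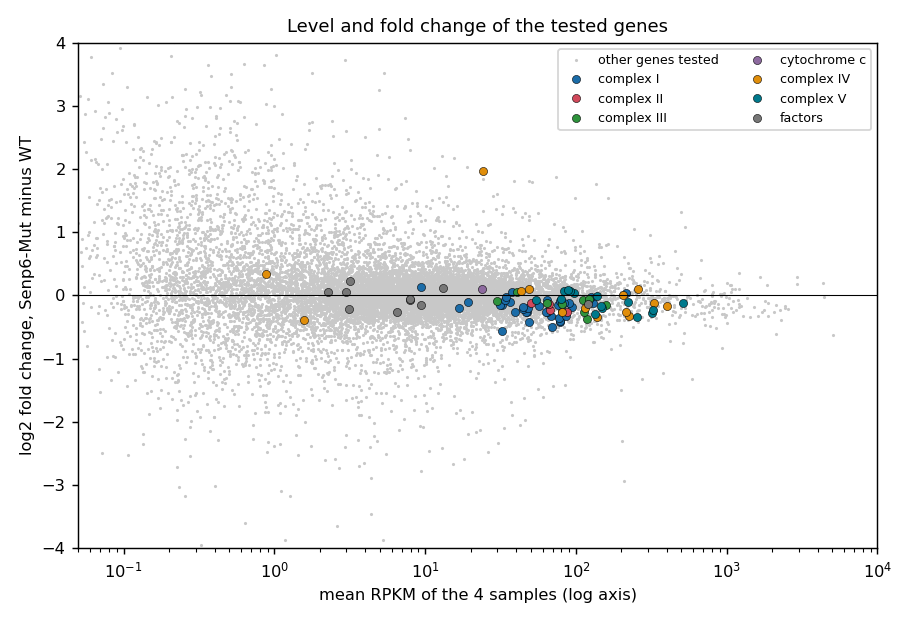
Mean RPKM of the 4 samples (log axis) against the log2 fold change of Senp6-Mut minus WT, with 1 point per tested gene and the chain coloured by complex. The members lie mostly at high RPKM and close to 0, with Cox6b2 as the exception at 1.97, and 54 tested genes lie outside the axes.

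The members near the read count threshold were isoforms known from other tissues. Just inside it were Ndufa4l2 (23, 11, 41 and 17 reads) and Cox4i2 (32, 27, 23 and 36 reads). Just outside were the muscle-type isoforms Cox7a1 (9, 6, 11 and 9 reads), Cox6a2 (7, 3, 4 and 7 reads) and Cox8b (2, 4, 4 and 9 reads), and Cox7b2, an isoform known from testis, had 1 read in all. These muscle-type isoforms thus stayed near 0 in samples whose muscle markers were higher. None of the mitochondrially encoded subunits is listed in the files, so that the values concern the nuclear part of the chain alone.

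No member passed an adjusted p of 0.05 between Senp6-Mut and WT in the quasi-likelihood test of edgeR, and 0 of all 14123 genes did (0%). At an unadjusted p under 0.05, 1 member was higher in Senp6-Mut, against 9.29% of all genes, and 3 members were lower, against 6.28%. With DESeq2, Cox6b2 was the 1 member past an adjusted p of 0.05, where 3.07% of all genes passed as higher and 1.86% as lower. At each of these thresholds the share of the members was at or under that of all genes. Without WT replicate 2, 16 members passed an adjusted p of 0.05 in edgeR, all of them lower in Senp6-Mut, which was 18.0% of the members beside 10.3% of all genes called lower in that fit.

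The log2 fold changes of the chain lay close together and a little below 0. The median over the 89 members was -0.14, against 0.0097 over all genes, and 70 members (78.7%) had a negative value against 48.6% of all genes. In 37 members (41.6%) both Senp6-Mut samples lay below both WT samples after TMM scaling, against 22.8% of all genes. The reverse held for 2 members, Cox6b1 and Cox6b2, against 25.4% of all genes. The count of 37 was 30 on the RPKM as deposited and 41 with DESeq2 scaling. The 22.8% of all genes holds for TMM scaling alone, so these other counts have no share beside them. Within 1.25-fold lay 85.4% of the members and 67.2% of all genes. The SD of the log2 fold change was 0.28 over the members and 0.16 without Cox6b2, against 0.62 over all genes. Over the other mitochondrial lists given below, it ran from 0.13 (citric acid cycle and pyruvate dehydrogenase) to 0.32 (coenzyme Q synthesis). Within 1.25-fold lay 100% and 72.7% of the genes of these lists. Such closeness was thus not particular to the chain. For 84 members the 95% interval of the change stayed within 2-fold either way, and the 5 others were Ndufv3, Ndufa13, Cox4i2, Ndufa4l2 and Cox6b2.

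Sample by sample, the median member lay at 0.051 and -0.051 (log2 relative to the mean of WT) in the WT samples and at -0.19 and -0.083 in the Senp6-Mut samples. Both mutant samples were thus below both WT samples, and the gap between WT replicate 2 and Senp6-Mut replicate 2 was smaller than the gap within either pair. The median change was -0.23 without WT replicate 2 and -0.093 without Senp6-Mut replicate 1.

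Gene length moved with this lean. The members are short, with a median of 754 bases against 2891 over all genes. Genes shorter than 600 bases had a median log2 fold change of -0.14 over all 201 of them and of -0.15 over the 33 members among them. From 600 to under 1200 bases the medians were -0.083 over 1212 genes and -0.19 over 30 members, and from 1200 bases they were 0.019 over 12710 genes and -0.094 over 26 members. With the trend of fold change on length across all genes removed, the median of the chain was -0.044. Among the members alone, log2 fold change and log2 length had a Pearson r of 0.012 (n = 89 genes from the same 4 libraries), and of 0.14 without Cox6b2, given as a description. The cause of the length trend was not tested.

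**Figure D2:**
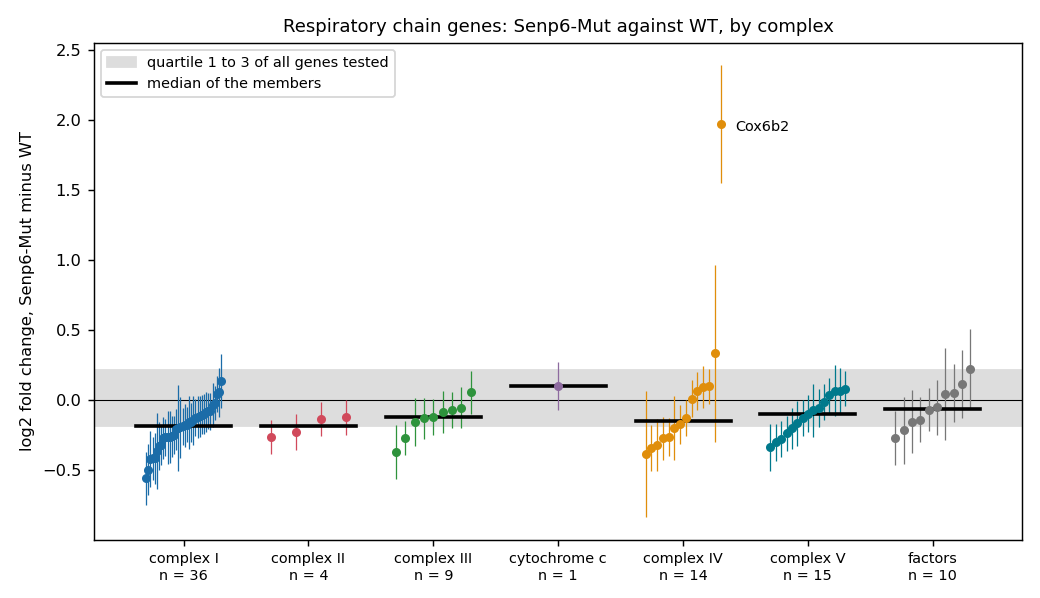
Log2 fold change of Senp6-Mut minus WT for each member, by complex, with 1 point per gene, bars of 1 SE, the median of each complex as a line and the span from the lower to the upper quartile of all genes tested in grey. Most points of complexes I to V lie between -0.56 and 0.14, and Cox6b2 lies alone at 1.97.

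Complex I, the NADH dehydrogenase, had a median of -0.18, as did complex II, and 33 of its 36 members had a negative value. Both Senp6-Mut samples lay below both WT samples in 17 of the 36 (47.2%), against 22.8% of all genes.

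Ndufv3, an accessory subunit of the NADH-binding module, had an RPKM of 43.9 and 31.9 in WT and of 26.1 and 27.1 in Senp6-Mut. The groups did not overlap, but the WT samples differed from each other by more than WT replicate 2 did from the mutants. The change was -0.56 in log2 (SE 0.19, edgeR adjusted p = 0.231), the lowest of all members. Ndufs7, which holds the last iron-sulphur cluster before coenzyme Q, was at 90.2 and 70.7 RPKM in WT and at 53.1 and 64.7 in Senp6-Mut. Again both mutant samples were the lower ones, and the change in log2 was -0.50 (SE 0.18, edgeR adjusted p = 0.257).

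Ndufs8, a core subunit with iron-sulphur clusters named after its values were seen, was at 56.5 and 53.9 RPKM in WT and at 37.6 and 47.8 in Senp6-Mut (log2 fold change -0.42, SE 0.15, edgeR adjusted p = 0.265). These WT samples were close to each other, and the mutant samples were lower and farther apart. Ndufb11, an accessory subunit of the membrane arm, had 104.6 and 73.1 RPKM in WT and 66.0 and 71.1 in Senp6-Mut, so that WT replicate 1 stood above the other 3 samples. The change was -0.42 in log2 (SE 0.20, edgeR adjusted p = 0.383). At the other end, Ndufs4, an accessory subunit, was at 8.82 ± 1.28 RPKM in WT and 9.99 ± 1.51 in Senp6-Mut (SD, n = 2), with overlapping samples. The most abundant, Ndufa3, had a log2 fold change of 0.044 (95% interval -0.26 to 0.35).

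Complex II is the succinate dehydrogenase that also works in the citric acid cycle. It was the one complex with all its genes lower in both Senp6-Mut samples (4 of 4), against 22.8% of all genes. Its median was -0.18. Sdhc, a membrane anchor, was at 89.7 and 98.3 RPKM in WT and 79.1 and 82.4 in Senp6-Mut (log2 fold change -0.26, SE 0.12, edgeR adjusted p = 0.369). Sdhb, the iron-sulphur subunit, was at 73.1 and 69.3 in WT and 60.5 and 65.0 in Senp6-Mut (-0.23, SE 0.13, adjusted p = 0.462). The catalytic flavoprotein Sdha was at 65.0 and 71.1 in WT and 63.4 and 64.2 in Senp6-Mut (-0.13, SE 0.12, adjusted p = 0.655). These gaps were small: the highest mutant value of Sdha lay just under the lowest WT value. Sdhd, the other anchor, was at 49.5 and 53.2 in WT and 48.2 and 48.9 in Senp6-Mut (-0.12, SE 0.12, adjusted p = 0.693). The signs of the 4 genes were negative under every alternative run, and with the length trend removed the median was -0.14.

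Complex III, the cytochrome bc1 complex, had a median of -0.12, with 8 of 9 members negative. After scaling, 4 of the 9 (44.4%) were lower in both mutant samples, against 22.8% of all genes. Uqcrc1, a core protein of the matrix side, was at 122.7 and 119.8 RPKM in WT and 101.3 and 105.8 in Senp6-Mut. The pairs were tight and apart, with a log2 fold change of -0.27 (SE 0.12, edgeR adjusted p = 0.353). Uqcr11, a small accessory subunit, was at 142.7 and 120.7 in WT and 88.0 and 122.9 in Senp6-Mut, so that Senp6-Mut replicate 1 was the low sample (-0.37, SE 0.19, adjusted p = 0.430). Cyc1, the haem protein that hands electrons to cytochrome c, was at 60.9 and 70.0 in WT and 62.8 and 61.4 in Senp6-Mut (-0.12, SE 0.13, adjusted p = 0.724). The RPKM of Cyc1 overlapped between the genotypes. Without Senp6-Mut replicate 1, the median of complex III was -0.0038.

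Cycs, cytochrome c itself, which carries electrons to complex IV and is released from mitochondria in apoptosis, was at 18.8 and 26.4 RPKM in WT and 25.6 and 24.1 in Senp6-Mut. The mutant samples lay between the WT samples (log2 fold change 0.099, 95% interval -0.31 to 0.51, edgeR adjusted p = 0.836). The sign of Cycs turned to -0.10 without WT replicate 1.

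**Figure D3:**
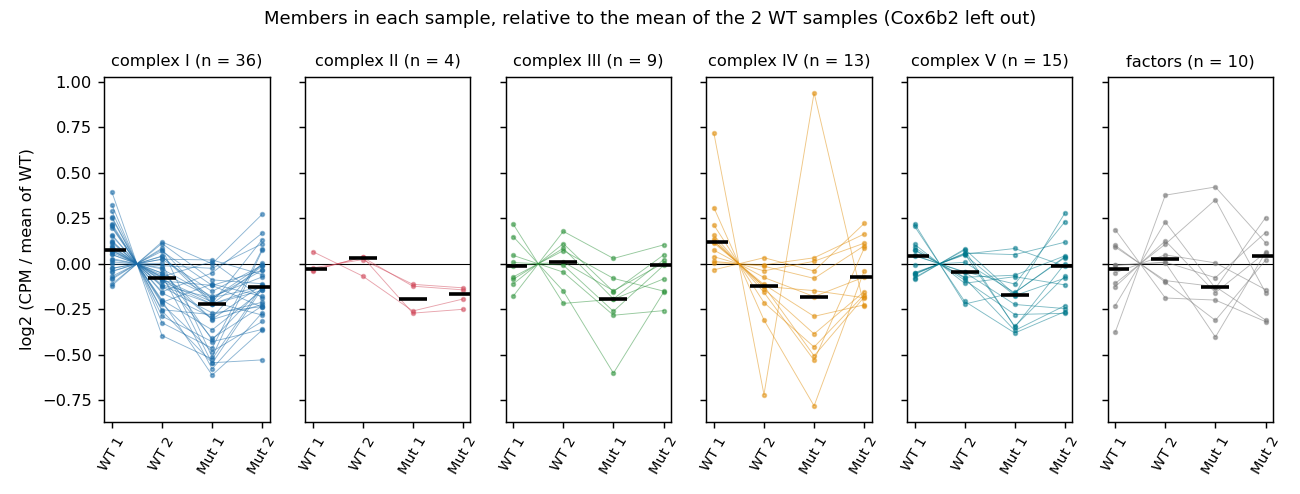
Each member in each sample as log2 of its TMM-scaled CPM over the mean of the WT samples, by complex, with 1 line per gene, black bars for the medians and Cox6b2 left out of complex IV. In complexes I to V the lowest median is that of Senp6-Mut replicate 1, and the 4 genes of complex II are below 0 in both mutant samples.

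Complex IV, the cytochrome c oxidase, held the member that stood apart, Cox6b2. Its 14 members had a median of -0.15, with 8 negative. In both mutant samples 4 (28.6%) were lower and 2 (14.3%) higher, against 22.8% and 25.4% of all genes. Among the abundant subunits, Cox7c was at 161.6 and 142.0 RPKM in WT and 108.4 and 139.2 in Senp6-Mut (log2 fold change -0.34, SE 0.17, edgeR adjusted p = 0.397). Cox4i1, the common form of the regulatory subunit that binds ATP, was at 249.3 and 214.3 in WT and 179.9 and 216.9 in Senp6-Mut (-0.27, SE 0.15, adjusted p = 0.469). In both, Senp6-Mut replicate 1 was the low sample, and Cox4i1 overlapped on the RPKM scale. Cox8a had a log2 fold change of -0.13 (SE 0.13), Cox7a2 of 0.096 (SE 0.15) and Ndufa4, a subunit first assigned to complex I, of 0.012 (SE 0.13). The sign of Ndufa4 turned with DESeq2 scaling, and that of Cox8a with the length trend removed.

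Several subunits of complexes IV and V come from more than 1 gene. In complex IV, where the other forms are known from particular tissues, the common form was the main one in every sample. Cox4i2, the form induced by low oxygen and known from lung, made up 0.833%, 0.659%, 0.564% and 0.802% of the summed RPKM of Cox4i1 and Cox4i2. Ndufa4l2, known as a target of hypoxia signalling, made up 0.557%, 0.211%, 0.692% and 0.272% of its pair with Ndufa4. Neither share separated the genotypes, and both genes had few reads: the 95% interval of the log2 fold change ran from -1.46 to 0.69 for Cox4i2 and from -1.18 to 1.85 for Ndufa4l2. Cox6a1 made up at least 99.89% of its pair in each sample, Cox8a at least 99.75% and Cox7a2 at least 97.59%.

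The pair of Cox6b1 and Cox6b2 was different. COX6B is a subunit on the outer face of complex IV, near where cytochrome c binds, and Cox6b2 is the isoform known from testis. Cox6b1 was at 241.9 and 249.8 RPKM in WT and 255.6 and 287.2 in Senp6-Mut, with a log2 fold change of 0.10 (SE 0.12, edgeR adjusted p = 0.763). Both mutant samples were higher by a margin within the spread, and not with upper-quartile scaling. The 250 bases before the start of both genes are shown because this pair held the one member that stood apart (RefSeq, GRCm38.p6, lower case throughout as none of the motifs searched lies in them).
Cox6b1 (chr7:30626115-30626364, minus strand): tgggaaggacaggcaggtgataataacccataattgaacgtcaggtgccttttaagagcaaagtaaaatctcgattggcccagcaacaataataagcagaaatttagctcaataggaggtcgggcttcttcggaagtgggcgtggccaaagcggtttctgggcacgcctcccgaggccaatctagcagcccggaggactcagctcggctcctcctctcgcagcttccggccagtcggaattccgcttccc
Cox6b2 (chr7:4753095-4753344, minus strand): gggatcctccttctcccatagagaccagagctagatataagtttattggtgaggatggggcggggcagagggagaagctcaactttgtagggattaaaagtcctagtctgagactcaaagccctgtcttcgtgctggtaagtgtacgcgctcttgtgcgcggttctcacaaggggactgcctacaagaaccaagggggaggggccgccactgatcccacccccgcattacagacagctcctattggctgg

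Cox6b2 (gene ID 333182) was read 125 and 122 times in WT and 385 and 865 times in Senp6-Mut. Its RPKM was 10.8 and 8.47 in WT, a mean of 9.63 ± 1.64 (SD, n = 2), and 22.5 and 55.6 in Senp6-Mut, a mean of 39.1 ± 23.4 (SD, n = 2). Every mutant value was above every WT value, the WT samples were close together, and the mutant samples differed from each other by more than the WT mean. The change was 3.91-fold (95% interval 1.94 to 7.88), or 1.97 on the log2 scale (SE 0.42, edgeR unadjusted p = 0.00271, adjusted p = 0.111). DESeq2 gave 1.95 with an adjusted p = 0.000129, and the adjusted p over all alternatives ran from 3e-06 to 0.594.

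The size of the change in Cox6b2 rested in part on Senp6-Mut replicate 2, which is also the sample with Xist reads. Without that sample it came to 1.21 in log2 (edgeR adjusted p = 0.177), and without Senp6-Mut replicate 1 it was 2.47. Leaving out WT replicate 1 or 2 gave 2.17 (adjusted p = 0.594) and 1.74 (adjusted p = 0.443). The direction was the same in each case. Of the summed RPKM of Cox6b1 and Cox6b2, Cox6b2 made up 4.27% and 3.28% in WT and 8.10% and 16.2% in Senp6-Mut, so that Cox6b1 remained the main form in every sample. The longest stretch of identical bases between the transcripts of both genes was 14 bases, and Cox6b2 has no near-identical pseudogene transcript.

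The genes next to Cox6b2 on the chromosome, in RefSeq order, lay on both sides of 0. They were picked after the value of Cox6b2 was seen. On one side, Suv420h2 (Kmt5c), a histone H4 methyltransferase, had 794 and 718 reads in WT and 619 and 593 in Senp6-Mut (log2 fold change -0.72, edgeR adjusted p = 0.164, DESeq2 adjusted p = 0.0497). On the other side, past Fam71e2, which is not listed, Il11, a cytokine of the interleukin-6 family, had 24 and 32 reads in WT and 91 and 141 in Senp6-Mut (1.69, edgeR adjusted p = 0.113, DESeq2 adjusted p = 0.0267). One neighbour was thus lower and another higher, each without overlap between the genotypes. Back on the side of Suv420h2, the next gene, Tmem150b, had 2 and 0 reads in WT and 7 and 12 in Senp6-Mut and was not tested. Beyond it, the kinase gene Brsk1 had 357 and 394 reads in WT and 541 and 517 in Senp6-Mut (0.11, SE 0.16).

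**Figure D4:**
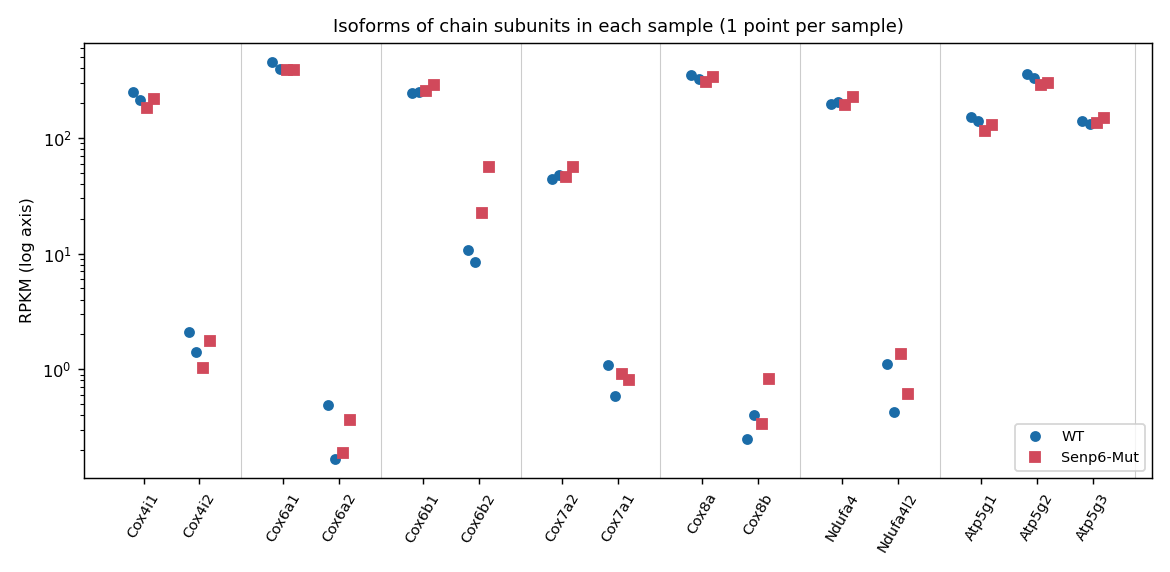
RPKM (log axis) of the isoforms of chain subunits, with 1 point per sample, circles for WT and squares for Senp6-Mut. In every set of complex IV the common form lies near or above 44 RPKM and the other form near or below 2.1, except Cox6b2, which lies at 8.47 to 10.8 in WT and 22.5 to 55.6 in Senp6-Mut.

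Complex V, the ATP synthase, had a median of -0.097, with 11 of 15 members negative. In both mutant samples 6 of the 15 (40%) were lower, against 22.8% of all genes. The catalytic alpha subunit Atp5a1 was at 347.1 ± 6.15 RPKM in WT and 303.8 ± 2.21 in Senp6-Mut (SD, n = 2), with a log2 fold change of -0.24 (SE 0.12). Atp5b, its partner in the catalytic head, had a log2 fold change of -0.13 (SE 0.13, edgeR adjusted p = 0.692), and its RPKM overlapped. Atp5d, the delta subunit of the central stalk, was at 314.8 and 246.1 in WT and 217.4 and 242.1 in Senp6-Mut (-0.33, SE 0.17, adjusted p = 0.407). WT replicate 1 was the high sample here, and the other 3 were closer together.

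The c subunit, which forms the rotating ring of complex V, is made from Atp5g1, Atp5g2 and Atp5g3, whose mature proteins are the same. Atp5g1 was at 150.9 and 140.9 RPKM in WT and 115.0 and 129.7 in Senp6-Mut (log2 fold change -0.30, SE 0.13, edgeR adjusted p = 0.347). Atp5g2 was at 357.3 and 328.2 in WT and 286.9 and 295.9 in Senp6-Mut (-0.28, SE 0.13, adjusted p = 0.367). Atp5g3 was at 141.1 and 132.6 in WT and 133.1 and 147.1 in Senp6-Mut (-0.010, SE 0.13). The first pair of genes was lower in both mutant samples, while Atp5g3 overlapped and changed sign between alternatives. As shares of the summed RPKM, Atp5g2 was the main source at 55.0% and 54.5% in WT and 53.6% and 51.7% in Senp6-Mut, and Atp5g3 made up 21.7% and 22.0% in WT and 24.9% and 25.7% in Senp6-Mut.

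The 10 members that are not core subunits had a median of -0.060. Of them 2 (20%) were lower in both mutant samples, close to the 22.8% of all genes. They include the complex I assembly factors Ndufaf1 to Ndufaf7 and Cox7a2l, known as a factor that can join complexes III and IV into supercomplexes. Whether Cox7a2l does so in these cells was not tested. Cox7a2l was at 129.4 and 117.1 RPKM in WT and 100.9 and 130.2 in Senp6-Mut (log2 fold change -0.14, SE 0.16), with overlapping samples. Ndufaf4 was at 2.08 and 3.66 in WT and 3.76 and 3.12 in Senp6-Mut (0.22, SE 0.28). Atp5sl (-0.27, SE 0.19) and Atp5s (-0.22, SE 0.24) were the pair that lay lower in both mutant samples.

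Other mitochondrial gene lists were fixed with earlier results of these data known, and their medians ran from -0.21 to -0.0071. In edgeR or DESeq2, 0 of their genes passed an adjusted p of 0.05. Coq10b and Tmem70 were under an unadjusted p of 0.05 in edgeR. The 16 genes of the citric acid cycle and pyruvate dehydrogenase had a median log2 fold change of -0.044, with 2 higher (12.5%) and 6 lower (37.5%) in both mutant samples, beside 25.4% and 22.8% of all genes. Their widest values were those of Idh3a, a subunit of the NAD-linked isocitrate dehydrogenase (0.25, SE 0.16), and Suclg1, of succinyl-CoA ligase (-0.25, SE 0.13). The 11 genes of coenzyme Q synthesis had a median of -0.16, with 2 higher (18.2%) and 5 lower (45.5%). Coq7, a hydroxylase of that pathway, had 12.2 and 13.9 RPKM in WT and 9.56 and 10.6 in Senp6-Mut (-0.42, SE 0.19). Coq10b, a coenzyme Q binding protein, had 5.93 and 10.8 in WT and 13.6 and 14.1 in Senp6-Mut (0.69, SE 0.26, edgeR adjusted p = 0.273). Genes of 1 list thus lay on both sides of 0.

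The 12 tested carriers and pores had a median of -0.097, with 2 higher and 2 lower (16.7% each), and included Vdac1, the outer membrane channel, at 109.3 and 127.5 RPKM in WT and 145.6 and 151.7 in Senp6-Mut (0.29, SE 0.13, edgeR adjusted p = 0.347). Ucp2, an uncoupling protein homologue, overlapped at 17.3 and 9.11 in WT and 16.2 and 23.3 in Senp6-Mut. The 35 tested assembly factors outside the member rule had a median of -0.045, with 7 higher (20%) and 8 lower (22.9%), close to the shares of all genes, among them Tmem70 (0.44, SE 0.17), needed for complex V assembly, and Tmem126b (-0.42, SE 0.20), needed for complex I assembly. The 5 other enzymes that feed coenzyme Q had a median of -0.21, with 0 higher (0%) and 3 lower (60%), beside 25.4% and 22.8% of all genes. Their widest values were those of Etfb (-0.24, SE 0.17) and Gpd2 (0.24, SE 0.21).

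The 16 regulators of mitochondrial biogenesis had a median of -0.0071. In both mutant samples 3 were higher (18.8%) and 4 lower (25%), near the 25.4% and 22.8% of all genes. The coactivators were scarce: Ppargc1a was at 0.352 and 0.147 RPKM in WT and 0.174 and 0.289 in Senp6-Mut, and Ppargc1b at 0.976 and 0.523 in WT and 0.512 and 0.320 in Senp6-Mut (-0.88, SE 0.45, edgeR adjusted p = 0.413). Nrf1 (-0.038, SE 0.13), Gabpa (0.10, SE 0.13) and Tfam (-0.049, SE 0.17), the factors known to drive nuclear chain genes and mitochondrial transcription, lay near 0. Polg2, a subunit of the mitochondrial DNA polymerase, had a log2 fold change of -0.34 (SE 0.33). Esrra, a nuclear receptor partner of the coactivators, was at 9.48 and 7.71 in WT and 9.88 and 11.5 in Senp6-Mut (0.27, SE 0.18).

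Promoter sequences were found for 74 of the 89 members and 11153 tested genes, as 250 bases before to 50 bases after the start. The NRF1 core GCGCATGC was present on either strand in 13 member promoters (17.6%), against 5.59% of those of all tested genes. The YY1 motif AAGATGGC was present in 11 (14.9% against 4.97%), and the ETS motif CCGGAAGT, bound by Gabpa, in 5 (6.76% against 8.40%). Complex I held 7 of the 11 YY1 matches, in 32 promoters (21.9%), a share like that of complex V (3 of 14, 21.4%). The median log2 fold change was -0.11 over the members with the NRF1 core and -0.13 over those without it, -0.17 with and -0.13 without the YY1 motif, and -0.20 with and -0.13 without the ETS motif. The upstream 250 bases of Cox6a1, the most abundant subunit of complex IV, and of Cycs are shown as examples with the NRF1 core in capitals, which begins 162 and 60 bases before the start. In Cox6a1 the capitals hold overlapping matches on both strands, and in Cycs the match is on the reverse strand (GCATGCGC).
Cox6a1 (chr5:115348959-115349208, minus strand): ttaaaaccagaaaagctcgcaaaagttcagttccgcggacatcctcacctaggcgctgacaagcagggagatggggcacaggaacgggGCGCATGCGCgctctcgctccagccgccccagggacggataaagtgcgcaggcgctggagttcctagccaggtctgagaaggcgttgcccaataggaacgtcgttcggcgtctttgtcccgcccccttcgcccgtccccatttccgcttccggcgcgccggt
Cycs (chr6:50566570-50566819, minus strand): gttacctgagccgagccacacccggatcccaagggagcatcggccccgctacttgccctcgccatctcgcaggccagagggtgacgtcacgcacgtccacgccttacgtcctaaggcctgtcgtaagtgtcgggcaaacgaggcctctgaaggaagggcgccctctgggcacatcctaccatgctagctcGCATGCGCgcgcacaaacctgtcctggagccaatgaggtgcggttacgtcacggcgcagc
CpG pairs were counted over the full window, from 250 bases before to 50 bases after the start, which is longer than the sequences shown. The window of Cox6b2 held 10, against 32 in each of Cox6a1 and Cycs and 17 in Cox6b1. The median was 20 over the members and 22 over all tested genes, with the highest count taken where a gene had several starts.

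Several of these genes have processed pseudogenes, onto which reads could have been split, and the handling of reads that match several places is not given in the sources used here. Of the 89 members, 20 had at least 1 pseudogene transcript with at least 95% identity over at least 200 bases, up to 8 for Atp5l. The median log2 fold change was -0.15 for these 20 and -0.13 for the other 69.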

How the data were processed

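RNA-seq was done on oligo(dT)-enriched mRNA of 4 chondrocyte cultures. For each gene the authors deposited the read count without normalization, the RPKM, which scales it by gene length and reads on genes, and the coverage, as the percent of each gene's bases under reads. The submitters' processing notes name build mm9 and SAMtools. The aligner, the counter and the annotation are not given in the sources used here. Genes with no read in a sample are not listed there and were set to 0.

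The test was the quasi-likelihood F test in edgeR 4.0.16 under R 4.3.3 (robust, TMM factors 0.966 to 1.03). It ran over 14123 genes, those reaching 10 counts in 2 or more samples, in all 4 samples without covariates, and p values were adjusted over all genes by the Benjamini-Hochberg method. SE and 95% intervals came from the F statistic. With 2 samples a group an exact permutation test cannot give a p below 0.333. Medians and counts over lists are descriptions. RPKM values are as deposited. Alternatives were DESeq2 1.42.0, its size factors, upper-quartile scaling, other filters, limma 3.58.1 on log2(RPKM + 1) and log2(RPKM + 0.1), the replicate block, leaving out each sample and removal of the length trend. Removal of a trend on length and level was added after seeing the data. Scripts were tested on simulated data. Promoters are from RefSeq GRCm38.p6 and pseudogenes from GENCODE. The files give no coordinates.

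Genes named were, in each complex, the 3 with the largest change, the one with the smallest adjusted p and the most abundant one, the isoform sets, Sdha to Sdhd, Cyc1, Cycs, 2 genes per other list and 6 regulators. Other members were named after their values were seen (Ndufs8, Ndufs4, Ndufa13, Atp5a1 and Atp5l). The marker Col2a1 was also named outside this rule. The members and lists were chosen with earlier results of these data known.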

Additional observations from a re-analysis of the deposited data

How the results depend on the processing

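Over all genes, 697 passed an adjusted p of 0.05 with DESeq2, 286 with no filter on low counts and 117 with the replicate block, against 0 in the reported test, and leaving out 1 sample gave 105 to 2740, where the lone sample of a group was assumed to vary like the other group. Of the members, DESeq2 called 1, and leaving out 1 sample called 0 to 16. The 16, all lower, were called without WT replicate 2 and are 18.0% of the members, where 10.3% of all genes were called lower. Cox6b2 was the 1 called with DESeq2 and without Senp6-Mut replicate 1. Samples of the same number did not deviate together (correlation -0.042), and with the block 0 members were called and the median of the chain was -0.14.

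The median of the chain was -0.044 with the length trend removed, -0.046 with the length and level trend removed, and -0.23 to -0.093 when a sample was left out. In the same order, complex I gave -0.066, -0.084 and -0.30 to -0.11, complex III gave -0.017, -0.014 and -0.19 to -0.0038, and complex V gave 0.013, 0.023 and -0.17 to -0.0082. Complex II gave -0.14 and -0.13 with the trends removed, and -0.14 on both log2 RPKM scales. Complex IV gave -0.0069 with the length and level trend removed and -0.29 to -0.043 when a sample was left out, and the factors gave -0.14 to 0.041. Higher in both mutant samples was 1 member with upper-quartile scaling, where the 25.4% of all genes holds for TMM scaling alone. The cause of these shifts was not tested. With 2 samples a group, a change of the median size seen here (SE 0.15 per gene) is not detectable for 1 gene.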
